A study of Mus musculus with 3 samples.

Results

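The circadian clock genes described here are Arntl (also called Bmal1), Clock, Per1, Per2, Per3, Cry1, Cry2, Nr1d1, Nr1d2 and Dbp. They were chosen by name, and all 10 were found among the 20937 genes listed in the deposited counts. The counts come from RNA sequencing of the incisor enamel organ of mice aged 4 weeks, male by the methods of the study, with 1 library for each of 3 genotypes. Both Stim1 alleles were floxed in the Stim1 cKO (Stim1 fl/fl Cre+) and Stim1 Ctrl (Stim1 fl/fl Cre-) libraries, and 1 in Stim1 HT (Stim1 fl/wt Cre+). Cre, which deletes a floxed allele, was present in Stim1 cKO and Stim1 HT only, so Stim1 Ctrl kept both alleles intact. The Cre transgene was driven by an amelogenin promoter, which is active in ameloblasts from the secretory stage on, so Stim1 was not targeted in the other cells of the enamel organ, and whether a library pooled animals is not stated. The study asked what changes in the enamel organ when STIM1, the calcium sensor of the endoplasmic reticulum that opens store-operated calcium channels, is removed. These libraries are called cKO, HT and Ctrl from here on.

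The circadian clock is a feedback loop of transcription that runs in nearly every cell with a period of about a day. ARNTL and CLOCK bind E-boxes together and switch on the Per and Cry genes, whose proteins return to the nucleus and repress ARNTL and CLOCK, while the nuclear receptors NR1D1 and NR1D2 repress Arntl and the ROR receptors activate it. In tooth, enamel is laid down in daily increments, and clock proteins are present in ameloblasts.

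The 3 libraries held 21496136 counts in cKO, 20216507 in HT and 28265960 in Ctrl. Levels are given as TMM-scaled CPM, that is counts relative to the library total after correction for composition, and 3 counts corresponded to 0.124, 0.152 and 0.117 CPM in that order of libraries. With 1 library per genotype there was no replicate of any group, and intervals given for ratios are 95% intervals that cover counting error only. The hour at which each animal was killed is not stated in the labels or in the methods of the study. In bulk tissue, fewer cells of a type and less RNA per cell cannot be told apart.

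The cKO library went against the sex given for the animals. Xist, the RNA of the inactive X chromosome that marks female cells, had 10897 counts in cKO, 36 in HT and 1 in Ctrl. The Y-linked gene Ddx3y was present in every library, with 991 counts in cKO, 1587 in HT and 2058 in Ctrl, or 40.9, 80.5 and 79.9 CPM. Xist and a Y-linked gene were thus both abundant in cKO, which does not match RNA from male cells alone, while HT and Ctrl held little Xist. These genes were chosen after their values were seen, and their part in the clock gene values was not tested.

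Markers of several cell types set the cKO library apart from both control libraries as well. Among photoreceptor genes, Gnat1, the rod transducin, stood at 177.3 CPM in cKO, with 2 counts in HT and 5 in Ctrl. Prph2, a protein of the outer segment discs, stood at 103.6 CPM in cKO, with 2 counts in each control, and Pde6b, Crx and Rcvrn were not listed. All 5 neuron markers were over 2-fold above both controls, with a summed level of 778.6 CPM in cKO, 155.7 in HT and 77.8 in Ctrl and Stmn2 as the most abundant gene. The 4 secretory ameloblast markers, led by Amelx, summed to 3583 CPM in cKO, 31160 in HT and 23100 in Ctrl. The 4 maturation ameloblast markers, led by Odam, summed to 894.2 CPM in cKO, 378.9 in HT and 166.2 in Ctrl. Ameloblast markers were thus present in every library, with the secretory list lower in cKO and the maturation sum higher, mostly through Odam. Slc24a4 of the maturation list was also over 2-fold above both controls, at 22.1, 7.56 and 5.98 CPM, while Amtn equalled HT within counting error and Klk4 lay between the controls. Photoreceptor and neuron markers were higher in cKO. The part of these cell types in the clock gene values was not tested.

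**Figure D1:**
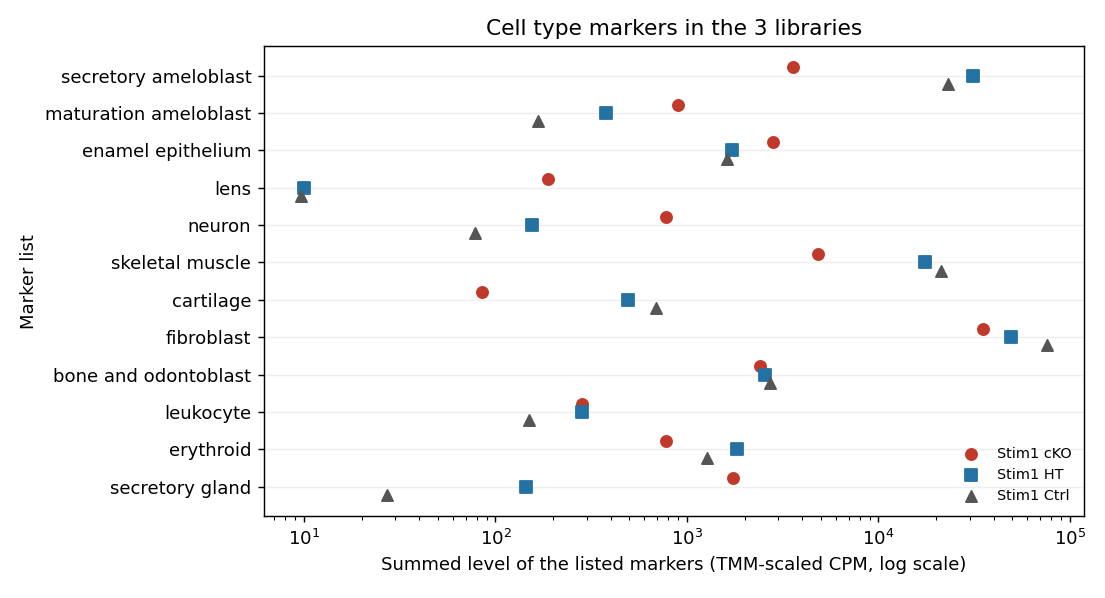
Summed level of cell type marker lists (vertical axis) in TMM-scaled CPM (horizontal axis, log scale), 1 point per library. The cKO library lies far to the right of both controls for lens, neuron and secretory gland markers and to the left for secretory ameloblast, skeletal muscle and cartilage markers.

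Stim1 itself stood at 72.8 CPM in cKO, 128.7 in HT and 186.3 in Ctrl. The order of its levels was thus that of the number of intact alleles, and it stayed well above 0 in the deleted library. Stim1 was not called, with an edgeR log2 fold change of -1.11 and a Benjamini-Hochberg adjusted p of 0.106. Stim2, the related sensor that was not targeted, stood at 49.3, 69.5 and 73.3 CPM in cKO, HT and Ctrl. It was thus also lowest in cKO. The parts of allele number and cell make-up in the Stim1 level were not tested.

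Across the clock genes, the clearest departures of the cKO library were a high level of Per3 and Nr1d1 and a low level of Cry1. Per3 was 2.11-fold the HT level and 2.35-fold the Ctrl level, and Nr1d1 was 1.97-fold and 1.61-fold. Cry1 stood at 0.659 of the HT level and 0.600 of the Ctrl level. Clock, Per1 and Per2 lay between the control libraries. None of these differences passed the test across all genes that is described next.

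The comparison asked whether clock genes differed between cKO and the controls, with HT and Ctrl grouped. The fit was edgeR's quasi-likelihood test over 18702 genes, with a call at an adjusted p under 0.01 and a fold change over 2. Its only measure of spread is the difference between the HT and Ctrl libraries. It called 0 of the 10 clock genes, against 0.0749% of all genes tested, and DESeq2 also called 0, against 10.6%. At an unadjusted p under 0.05, edgeR gave 3 of the 10 genes (31.9% of all genes), of which 2 were higher in cKO (18.5% of all genes) and 1 was lower (13.4%). The log2 fold change was above 0 for 7 of the 10 (49.6% of all genes). The median log2 fold change of the 10 genes was 0.23, beside -0.01 over all genes tested.

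Ordered by level, the cKO library was above both controls for 5 of the 10 genes (43.6% of all genes tested), below both for 2 (42.1%) and between them for 3. The share above both controls was thus near that of all genes. The share below both was smaller by count, a difference that was not tested, and 1 of the genes below, Cry2, equalled HT within counting error. The 5 genes above both controls were Arntl, Per3, Nr1d1, Nr1d2 and Dbp, and the 2 below were Cry1 and Cry2. Of the 5 above, Dbp also equalled HT within counting error, at a log2 ratio of 0.0031 (interval -0.15 to 0.16). With library size alone as the scaling, Clock and Per2 also moved above both controls and Cry2 moved between them, which left 7 above and only Cry1 below. That scaling moved genes upward in general, with a median log2 fold change of 0.25 over all genes tested in place of -0.01. The move is therefore not particular to the clock genes. The gap between the control libraries was smaller than both gaps to cKO for 5 of the 10 genes (59.0% of all genes tested). No clock gene differed by over 2-fold between HT and Ctrl (13.5% of all genes), and 1, Per3, was over 2-fold above both controls in cKO (19.1%), with 0 over 2-fold below (8.23%).

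**Figure D2:**
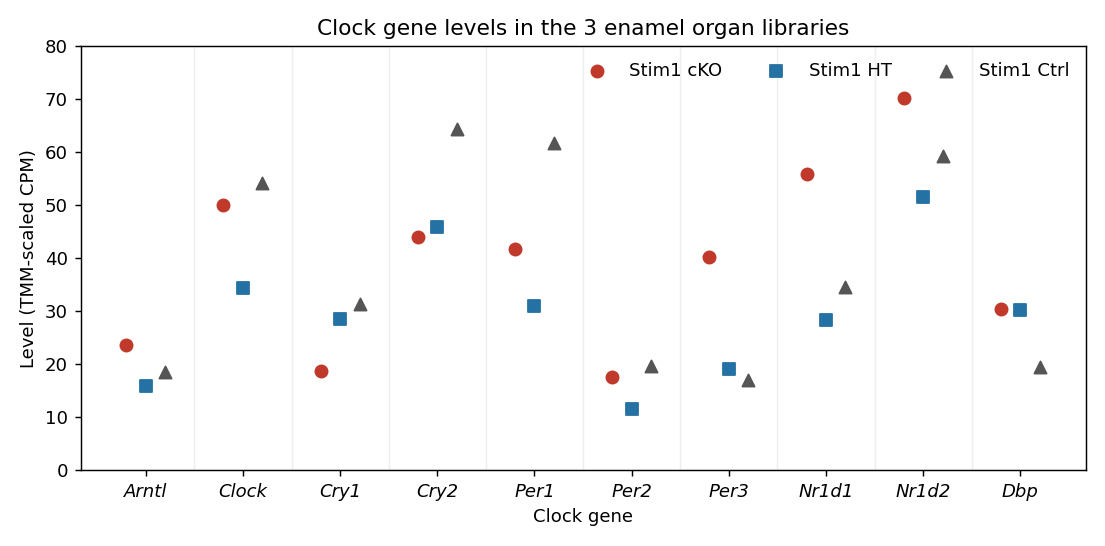
Level of each clock gene in TMM-scaled CPM (vertical axis) in the 3 libraries, 1 point per library. Per3 and Nr1d1 are set apart upward and Cry1 downward in cKO, while Clock, Per1, Per2 and Cry2 are highest in Ctrl.

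The activators come first in the loop. Arntl encodes the partner that is required for the DNA binding of CLOCK, and it had 573 counts in cKO, 313 in HT and 476 in Ctrl, or 23.7, 15.9 and 18.5 CPM. cKO was the highest of the 3 libraries, and the controls lay closer to each other than to it. The edgeR log2 fold change was 0.46, with a Benjamini-Hochberg adjusted p of 0.324.

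Clock, the other subunit of the activator, had 1210 counts in cKO, 677 in HT and 1394 in Ctrl, or 49.97, 34.4 and 54.1 CPM. Here HT was low and the other libraries lay near each other, and the log2 fold change of 0.17 turned to -0.12 when HT was left out. Npas2, which can take the place of CLOCK, was at 12.0, 9.39 and 10.49 CPM in cKO, HT and Ctrl. Arntl2, a paralog of Arntl, was at 6.11, 4.21 and 3.11 CPM, so Arntl2 was 1.45-fold the HT level and 1.97-fold the Ctrl level on few counts, Npas2 did not differ from Ctrl beyond counting error, and neither was called.

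Promoter windows are shown for the clock genes whose window held a clock motif, namely Per3, Cry1, Per1 and Arntl. Sequences are from RefSeq on GRCm38.p6 and run from 250 bases before to 50 bases after an annotated start, 5′ to 3′ on the strand of the gene. Windows were found for 9 of the 10 genes, 13 in all, with none for Per2. Both strands were searched for the E-box CACGTG, bound by ARNTL with CLOCK, the D-box TTATGTAA or TTACGTAA, bound by DBP, TEF, HLF and NFIL3, the cyclic AMP response element TGACGTCA, and the RORE, bound by ROR and NR1D receptors. These motifs occurred in 7.15%, 1.06%, 1.79% and 0.384% of all 32851 windows, respectively, and a match is a description of the letters. Among the windows of the clock genes, E-boxes were found for 2 genes, D-boxes for 1, the RORE for 1 and the cyclic AMP response element for 0. For Arntl, the RORE lay in 1 of its windows, chr7:113207261-113207560 on the plus strand, and began at base 27 after the start (capitals):
Arntl: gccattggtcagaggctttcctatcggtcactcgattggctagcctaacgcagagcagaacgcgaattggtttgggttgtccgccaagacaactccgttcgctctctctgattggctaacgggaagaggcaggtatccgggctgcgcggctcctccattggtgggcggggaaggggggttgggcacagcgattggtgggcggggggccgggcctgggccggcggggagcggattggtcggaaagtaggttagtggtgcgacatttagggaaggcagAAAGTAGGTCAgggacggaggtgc

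The Per genes encode repressors, and their RNA peaks later in the day than that of Arntl. Per1, which also responds quickly to light, hormones and calcium signals, had 1011 counts in cKO, 610 in HT and 1586 in Ctrl, or 41.7, 31.0 and 61.6 CPM. cKO lay between controls that differed by nearly 2-fold, with a log2 ratio of HT to Ctrl of -0.99 (interval -1.13 to -0.86). Its log2 fold change of -0.15 was -0.56 without HT and turned to 0.43 without Ctrl, so Per1 had no direction in these data. It was 0.12 with library size as the scaling, which moved genes upward in general. Per2, needed for a stable rhythm, was at 17.6, 11.5 and 19.7 CPM in cKO, HT and Ctrl. HT was again the low library, and the log2 fold change of 0.18 turned to -0.16 without HT.

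Per3, the Per gene that is least needed for the core loop, had 972 counts in cKO, 375 in HT and 440 in Ctrl, or 40.1, 19.0 and 17.1 CPM. The control libraries lay near each other and cKO was far above both. The log2 ratio was 1.08 to HT (interval 0.90 to 1.25), 1.23 to Ctrl (1.07 to 1.40) and 0.16 between the controls (-0.05 to 0.36). Counting error alone thus left the ratio to HT on either side of 2-fold. The edgeR log2 fold change was 1.15, with an unadjusted p of 0.00537 and a Benjamini-Hochberg adjusted p of 0.0521. DESeq2 gave an adjusted p of 0.0384, and over all alternatives it lay between 0.0319 and 0.0522, above the threshold of 0.01 in each.

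Because its RNA was set apart from that of Per1 and Per2, the Per3 and Per1 windows are shown together. Per3 (chr4:151044616-151044915, minus strand) held 2 D-boxes, which began at bases -205 and -158 from the start, and Per1 (chr11:69098699-69098998, plus strand) held 1 E-box, which began at base -166. Capitals mark these motifs:
Per3: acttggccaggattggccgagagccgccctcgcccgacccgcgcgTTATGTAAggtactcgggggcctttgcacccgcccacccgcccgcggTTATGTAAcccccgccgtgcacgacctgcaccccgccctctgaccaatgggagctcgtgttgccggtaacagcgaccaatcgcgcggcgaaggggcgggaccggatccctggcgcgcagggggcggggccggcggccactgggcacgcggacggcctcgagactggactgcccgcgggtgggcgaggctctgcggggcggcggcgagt
Per1: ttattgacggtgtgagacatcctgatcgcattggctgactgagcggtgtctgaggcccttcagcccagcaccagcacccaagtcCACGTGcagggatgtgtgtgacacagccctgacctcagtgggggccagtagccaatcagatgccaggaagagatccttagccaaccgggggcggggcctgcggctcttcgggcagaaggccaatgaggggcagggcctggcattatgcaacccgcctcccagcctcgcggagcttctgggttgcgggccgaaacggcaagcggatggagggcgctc

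The Per genes did not keep their ratios between libraries. Within a library, the ratio of Per3 to Per1 counts was 0.961 in cKO (Wilson interval 0.880 to 1.05), 0.615 in HT (0.541 to 0.699) and 0.277 in Ctrl (0.250 to 0.308). Against Per2 it was 2.28, 1.66 and 0.870. Both ratios were highest in cKO and lowest in Ctrl, with intervals that did not overlap, and such a ratio does not depend on the scaling between libraries.

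The Cry genes encode the strongest repressors of ARNTL and CLOCK. Cry1, whose RNA peaks later than that of the other repressors, had 455 counts in cKO, 562 in HT and 806 in Ctrl, or 18.8, 28.5 and 31.3 CPM. The controls lay near each other and cKO was below both, at a log2 ratio of -0.60 to HT (interval -0.78 to -0.42) and -0.74 to Ctrl (-0.91 to -0.57). The edgeR log2 fold change was -0.67, with an unadjusted p of 0.0488 and a Benjamini-Hochberg adjusted p of 0.155. Cry2 was at 43.9, 45.9 and 64.3 CPM in cKO, HT and Ctrl, so that cKO and HT did not differ beyond counting error and Ctrl was high. The Cry1 window (chr10:85185005-85185304, minus strand) held 1 E-box, which began at base -60, in capitals:
Cry1: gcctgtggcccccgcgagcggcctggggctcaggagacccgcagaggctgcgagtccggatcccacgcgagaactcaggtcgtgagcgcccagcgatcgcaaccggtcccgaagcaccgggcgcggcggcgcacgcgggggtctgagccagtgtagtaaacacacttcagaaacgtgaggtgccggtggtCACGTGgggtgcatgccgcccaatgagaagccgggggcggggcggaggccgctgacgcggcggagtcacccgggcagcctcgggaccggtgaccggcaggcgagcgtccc

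**Figure D3:**
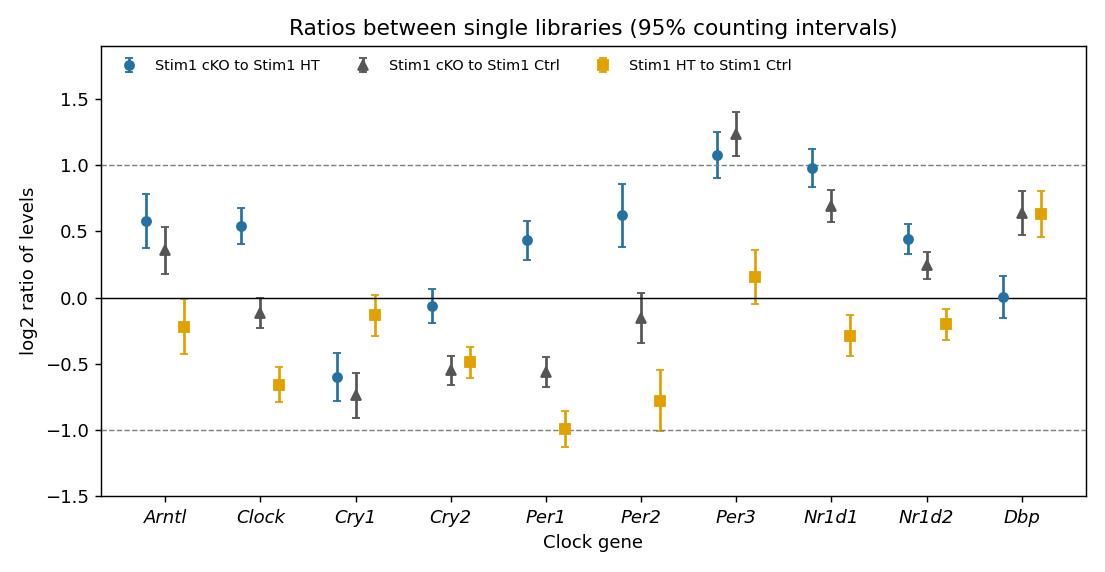
Log2 ratio of TMM-scaled levels (vertical axis) between each pair of libraries for the 10 clock genes, with 95% counting intervals as bars and dashed lines at 2-fold. For Per3 and Cry1 both ratios of cKO to a control lie on the same side of 0 and away from the ratio between the controls, while for Per1, Per2 and Clock the largest ratio is the one between the controls.

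Nr1d1 and Nr1d2 encode the REV-ERB receptors, heme-binding repressors that close the loop onto Arntl. Nr1d1 had 1352 counts in cKO, 558 in HT and 890 in Ctrl, or 55.8, 28.3 and 34.6 CPM. cKO was the highest library, with a log2 ratio of 0.98 to HT (interval 0.84 to 1.12) and 0.69 to Ctrl (0.57 to 0.82). The edgeR log2 fold change was 0.83, with an unadjusted p of 0.0200 and a Benjamini-Hochberg adjusted p of 0.0970. Its exons overlap those of Thra on the other strand by 263 bases, 8.55% of its exon length, and Thra had 6305, 4976 and 6557 counts in cKO, HT and Ctrl. How the counting treated strands is not stated. The labels and the methods name different library kits, of which the methods' kit keeps the strand. The part of Thra reads in the Nr1d1 level was not tested.

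Nr1d2 showed the same order of libraries on a smaller scale, at 70.1, 51.5 and 59.2 CPM in cKO, HT and Ctrl. The ratio of Nr1d1 to Nr1d2 counts was 0.796 in cKO (0.741 to 0.855), 0.550 in HT (0.496 to 0.610) and 0.584 in Ctrl (0.537 to 0.634). Nr1d1 was thus further from the controls than its paralog. Arntl, their target, was also highest in cKO, so the repressor and the repressed gene stood high in the same library.

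The ROR receptors compete with the REV-ERB receptors for the same element. Rora was at 137.8 CPM in cKO, 48.4 in HT and 74.0 in Ctrl. Rorb, the form known from retina and brain, had 445 counts in cKO, 14 in HT and 12 in Ctrl, or 18.4, 0.711 and 0.466 CPM. Rorb was low in both controls and high in the library where photoreceptor and neuron markers were highest, and its log2 fold change of 4.96 had a Benjamini-Hochberg adjusted p of 0.0167 in edgeR. The part of those cell types in the Rorb level was not tested.

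Dbp, a direct target of ARNTL with CLOCK and an activator at D-boxes, had 734 counts in cKO, 596 in HT and 502 in Ctrl, or 30.3, 30.2 and 19.5 CPM. cKO and HT were equal within counting error (log2 ratio interval -0.15 to 0.16), and Ctrl was lower, at a log2 ratio of 0.64 for cKO to Ctrl (0.47 to 0.80). Dbp and Per3 were the only clock genes with their lowest level in Ctrl. Exons of Dbp share 539 bases, 18.0% of its exon length, with Sphk2 on the other strand, which had 744, 596 and 765 counts in cKO, HT and Ctrl.

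The genes related to Dbp did not share an order of libraries. Tef stood at 94.0, 112.7 and 130.4 CPM in cKO, HT and Ctrl, and Hlf at 43.9, 24.9 and 27.8. Nfil3, which represses at the D-boxes where Dbp activates, stood at 13.7, 20.9 and 26.9 CPM. Hlf was therefore highest in cKO, and Tef and Nfil3 were lowest there. The ratio of Nfil3 to Dbp counts was 0.454 in cKO (0.399 to 0.516), 0.691 in HT (0.610 to 0.784) and 1.38 in Ctrl (1.23 to 1.55), so the balance between repressor and activator RNA differed among all 3 libraries, the controls included.

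Levels were compared between genes per kilobase of exon. In Ctrl the highest of the 10 were Nr1d1 at 11.2 CPM per kilobase, Nr1d2 at 10.95, Per1 at 10.94 and Cry2 at 10.2, neighbours in order that lie close together. The lowest in that library was Per3 at 1.78 CPM per kilobase. In cKO the highest was Nr1d1 at 18.1 CPM per kilobase and the lowest was Per2 at 3.01, and Per3 at 4.18 stood above Arntl at 3.15 and Clock at 3.64. Per3 was thus the lowest clock gene in Ctrl and not in cKO. In HT, Per2 at 1.958 and Per3 at 1.98 CPM per kilobase were the lowest.

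The next question was whether genes of opposite phase differed between the libraries. In peripheral tissues of mice, RNA of Arntl, Clock and Cry1 is known to peak late in the night or in the morning, and RNA of Nr1d1, Nr1d2, Dbp, the Per genes and Cry2 later in the day. The mean log2 CPM of the 3 morning-phase genes minus that of the 7 evening-phase genes was -0.50 in cKO (interval -0.57 to -0.42), -0.17 in HT (-0.26 to -0.08) and -0.11 in Ctrl (-0.18 to -0.04). The control libraries differed by -0.057 (-0.17 to 0.06), within counting error, and cKO lay below their mean by a difference of -0.36 (-0.45 to -0.26). Such a difference within a library does not depend on the scaling between libraries. It was not tested.

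Among the morning-phase genes, this difference rested on Cry1 more than on Arntl or Clock. The morning-phase mean log2 CPM in cKO, 4.81, lay between those of HT (4.64) and Ctrl (4.98). The evening-phase mean in cKO, 5.31, lay above those of HT (4.81) and Ctrl (5.09). Unlike their difference, these means depend on the scaling between libraries. Of the 21 ratios of a morning-phase to an evening-phase gene, cKO was below both controls in 11, above both in 5 and between them in 5. All 7 ratios with Cry1 were below both controls, although for Per1 and Cry2 the interval overlapped that of Ctrl. With Arntl, 2 of 7 were below, 3 above and 2 between, and with Clock, 2 were below, 2 above and 3 between. Without Cry1 and Cry2, the difference from the mean of the controls was -0.13, and that between HT and Ctrl was -0.19. This dropped a gene of each phase group, both of them below both controls in cKO. Cry1 was not left out alone, so -0.13 does not give its part of the difference. Of the 3 morning-phase genes, only Cry1 had a log2 fold change below 0, at -0.67. Arntl stood at 0.46 and Clock at 0.17, which turned to -0.12 when HT was left out. Of the 7 evening-phase genes, 5 had a log2 fold change above 0 and 2 below. Without Clock, the difference of cKO from that mean was -0.46, and with Npas2, Nfil3, Tef, Hlf, Ciart, Bhlhe41 and Usp2 added it was -0.52. With medians in place of means it was -0.71, and the difference between the controls turned to 0.058 with medians and to 0.10 without Clock.

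The ratio of morning-phase to evening-phase counts furthest from both controls in cKO was that of Cry1 to Per3, which was 0.468 in cKO (0.419 to 0.523), 1.5 in HT (1.31 to 1.71) and 1.83 in Ctrl (1.63 to 2.06). The cKO interval lay below those of both controls, and the control intervals overlapped each other. Between Cry1 and Arntl, both morning-phase genes, the ratio was 0.794 in cKO (0.702 to 0.898), 1.80 in HT (1.56 to 2.06) and 1.69 in Ctrl (1.51 to 1.896). Cry1 and Arntl thus parted in cKO although they belong to the same phase group. The ratio of Arntl to Dbp, genes of opposite phase, was 0.781, 0.525 and 0.948 in cKO, HT and Ctrl, with cKO between the controls.

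**Figure D4:**
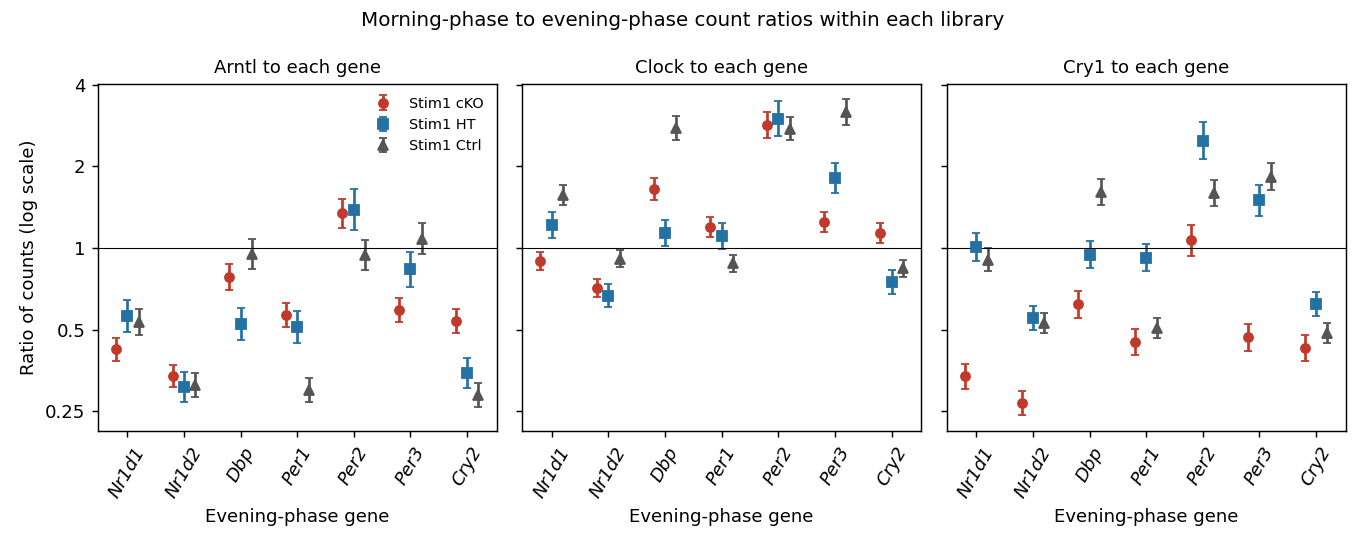
Ratio of counts of Arntl, Clock and Cry1 (panels) to each evening-phase clock gene (horizontal axis) within each library, on a log scale, with 95% Wilson intervals as bars. The cKO points are the lowest in all 7 ratios with Cry1, whereas with Arntl and Clock they lie above, below or between the controls.

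Beyond the 10 genes, 35 further genes of the clock pathway were listed and tested. None was called by edgeR, against 0.0749% of all genes tested, and 3 were called by DESeq2, against 10.6%, all of them higher in cKO: Rorb, Ncor1 and Crebbp. At an unadjusted p under 0.05 in edgeR, 9 were higher (18.5% of all genes) and 3 lower (13.4%), and the median log2 fold change was -0.0014, beside -0.01 over all genes. cKO was over 2-fold above both controls for 4 of them, namely Rorb, Crebbp, Ncor1 and Ciart (19.1% of all genes), and over 2-fold below both for 0 (8.23%). With library size as the scaling, 8 of the 35 were over 2-fold above both controls (23.4% of all genes under that scaling).

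Besides Rorb, the genes called by DESeq2 were cofactors. Crebbp, a histone acetyltransferase, stood at 227.6 CPM in cKO, 66.5 in HT and 77.7 in Ctrl. Ncor1, the corepressor through which REV-ERB receptors act, stood at 392.2, 151.3 and 181.8 CPM, while Hdac3, the deacetylase it recruits, stood at 54.8, 82.7 and 78.0. Corepressor and deacetylase RNA thus lay on opposite sides of the controls. The edgeR log2 fold changes were 1.66 for Crebbp, 1.24 for Ncor1 and -0.55 for Hdac3, with Benjamini-Hochberg adjusted p of 0.0304, 0.0629 and 0.203. Nono, a partner of PER proteins, stood at 150.8, 260.5 and 292.9 CPM, and Wdr5, another, at 39.3, 66.3 and 64.0, both lowest in cKO.

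Kinases that set the pace of the clock were split as well. In cKO, 2 of the 8 were above both controls (43.6% of all genes), 4 below both (42.1%) and 2 between. Csnk1e, which phosphorylates PER proteins, stood at 184.6 CPM in cKO, 94.4 in HT and 96.5 in Ctrl, while its paralog Csnk1d stood at 135.0, 169.1 and 176.0. Gsk3b stood at 224.4, 95.9 and 124.0 CPM. Csnk1e and Gsk3b were thus high in cKO and Csnk1d was low, and 0 of the 8 kinases was called by edgeR (0.0749% of all genes) or DESeq2 (10.6%). Among ubiquitin ligase subunits, Fbxl21 and Btrc were highest in cKO and Fbxw11 was lowest there, with log2 fold changes of 0.99, 0.24 and -0.46.

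Among the further repressors and outputs, Ciart, which represses ARNTL with CLOCK, had only 81, 27 and 30 counts in cKO, HT and Ctrl. Bhlhe41 stood at 27.7, 16.6 and 16.5 CPM and its paralog Bhlhe40 at 67.2, 59.0 and 75.5. Nampt, the rate-limiting enzyme of NAD salvage, stood at 66.1, 43.3 and 43.4 CPM, and Wee1, a kinase that holds back mitosis, at 5.57, 10.4 and 16.6. Of the 3 further repressors, 2 were above both controls in cKO (43.6% of all genes) and 0 below both (42.1%). Of the 4 outputs, 1 was above both and 2 were below both. Ciart, Bhlhe41 and Nampt were thus high and Wee1 low in cKO.

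**Figure D5:**
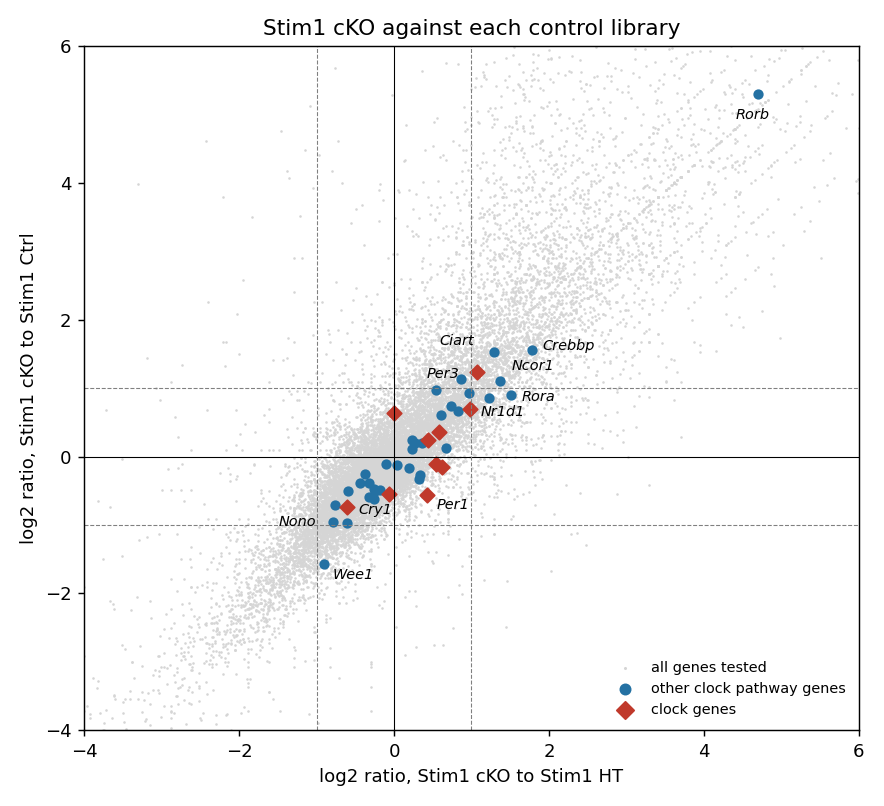
Log2 ratio of cKO to HT (horizontal axis) against the log2 ratio of cKO to Ctrl (vertical axis) for all genes tested (grey, some lie beyond the axes), the clock genes (red) and other clock pathway genes (blue), with dashed lines at 2-fold. Clock genes lie within the spread of all genes, Per3 is the only one past 2-fold on both axes, and Rorb stands far from the rest of the pathway.

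Per3 had the widest range of levels over the 3 libraries among the 10 genes, so the genes with the most similar profile were listed for it. Likeness was measured as the Euclidean distance between log2 CPM values over the 3 libraries after centring, among 14976 genes that averaged 50 counts or more. The nearest were Slc6a17 at a distance of 0.0148, Abhd6 at 0.0196, Ttc19 at 0.0206, Foxd2os at 0.0264 and Dusp14 at 0.0312. Slc6a17, for example, stood at 27.9, 13.3 and 12.0 CPM in cKO, HT and Ctrl. Within a distance of 0.1 there were 73 genes, with 0 clock genes among them, and the nearest clock pathway gene was Csnk1e at 0.212. With 3 libraries, many genes share a profile this closely.

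Signals that can reset the clock were read from genes that respond to them. Of 4 glucocorticoid response genes, Fkbp5 stood at 26.1 CPM in cKO, 32.3 in HT and 73.5 in Ctrl, Zbtb16 at 9.17, 6.50 and 26.9, and Tsc22d3 at 68.6, 94.1 and 142.9. These 3 were highest in Ctrl, where Per1, which glucocorticoids also induce, was highest. Sgk1 departed from them at 131.7, 57.2 and 57.1 CPM and was called by DESeq2 but not by edgeR. Fkbp5 and Zbtb16 differed by over 2-fold between the control libraries, at log2 ratios of HT to Ctrl of -1.19 and -2.05. Of 6 immediate early genes, Fos, Egr1, Nr4a1, Junb and Dusp1 were above both controls in cKO (43.6% of all genes) and Ier2 was below both (42.1%). Of these 6, edgeR called 0 (0.0749% of all genes) and DESeq2 called 0 (10.6%). Their part in the clock gene values was not tested.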

How the data were processed

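RNA was sequenced from the enamel organ in 3 libraries, 1 per genotype. The deposited values are raw counts per gene symbol, which the authors made from trimmed paired-end reads aligned with STAR. The genome build, annotation, counting tool and strand setting are not stated. All 20937 listed genes have at least 1 count in every library. Dates in place of symbols stood in 25 entries (0.154% of counts). Exon lengths and positions came from GENCODE M21 on GRCm38.

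Stim1 cKO was compared with Stim1 HT and Stim1 Ctrl grouped, with edgeR 4.0.16 (TMM factors 1.13, 0.975 and 0.911 for Stim1 cKO, Stim1 HT and Stim1 Ctrl, filterByExpr with a minimum count of 10, quasi-likelihood test with 1 residual degree of freedom, Benjamini-Hochberg adjustment). It called 14 of 18702 genes. DESeq2 1.42.0, other scalings, filters, thresholds and phase groupings were alternatives. Ratios between libraries have Clopper-Pearson intervals and ratios within a library Wilson intervals. The code was tested on simulated data.

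The clock genes, pathway lists and marker lists were chosen with earlier results of these data known. Named were all clock genes, genes of those lists, Stim1, Stim2 and the 5 genes nearest in profile to the clock gene with the widest range. Thra and Sphk2, for their exon overlap with clock genes, and Xist and Ddx3y, as a check of sex, were added after the data were seen.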

Additional observations from a re-analysis of the deposited data

How the results depend on the processing

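The number of genes called, 14 with edgeR, was 1987 with DESeq2, 50 with RLE factors, 138 with upper-quartile factors, 6 with library size only, 907 with no low-count filter, 6 among genes that averaged 50 counts or more and 1811 at an adjusted p under 0.05. It was 14 with TMM factors computed without mitochondrial and enamel matrix genes and 14 with no fold change minimum. The cause of these differences was not tested. No clock gene was called in any of these alternatives. Library size only moved the median log2 fold change of all genes to 0.25 and upper-quartile factors to 0.12, from -0.01. Of 90 recomputed log2 fold changes of clock genes, 86 kept their direction, none that had a test passed the threshold, and 4 reversed: Per1 to 0.12 with library size only, and 3 when a control was left out, where Per1 ranged from -0.56 to 0.43, Clock from -0.12 to 0.54 and Per2 from -0.16 to 0.62. Of 90 log2 ratios of single libraries, 71 moved by less than their counting interval and 19 by more, all 19 with library size only. Some of these changed sign. The ratio of Stim1 cKO to Stim1 Ctrl went from -0.12 to 0.19 for Clock and from -0.16 to 0.15 for Per2. That of Stim1 cKO to Stim1 HT went from -0.062 to 0.15 for Cry2. The difference in phase between Stim1 cKO and the mean of the controls, -0.36, was -0.71 with medians, -0.13 without Cry1 and Cry2, -0.46 without Clock and -0.52 with other phase genes added, and between -0.38 and -0.33 when a control was left out, an alternative chosen after seeing the data. The same difference for Stim1 HT minus Stim1 Ctrl, -0.057, was 0.058 with medians, -0.19 without Cry1 and Cry2 and 0.10 without Clock. At 1.5-fold in place of 2-fold, also chosen after seeing the data for the clock genes, 2 of them were above both controls and 1 below, and 11 and 4 of the 35 other pathway genes, beside 26.7% and 17.5% of all genes. Library size only put 8 pathway genes over 2-fold above both controls, beside 23.4% of all genes. Leaving out a control leaves no residual degrees of freedom, so it gave values with no test and no count of calls. No paired analysis was possible because there was 1 library per genotype. At 3 counts per library as the detection floor, depth did not limit the clock genes, of which the lowest count was 226.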

Other observations

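Other cell type markers differed between the libraries as well, given here as summed CPM in cKO, HT and Ctrl, in that order. The 3 listed lens genes of 8, led by Cryaa, stood at 188.6, 9.95 and 9.67, and 5 lens genes were not listed. Secretory gland markers, led by Obp2a, stood at 1731, 144.4 and 27.1, with 4 of 5 over 2-fold above both controls, while Bpifa2 was below both. Enamel epithelium markers, led by Krt5, stood at 2808, 1727 and 1614, with 5 of 5 above both controls.

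Skeletal muscle markers stood at 4865, 17610 and 21160, with Myh1 the most abundant in Stim1 cKO, and Myh4 alone of the 7 was above both controls. Cartilage markers stood at 84.9, 491.9 and 685.7, with Col2a1 at 23.3, 352.0 and 502.2 CPM. Of these 6, Col2a1, Col9a1 and Acan were below both controls, Matn1 was above both, and Matn3 and Comp lay between. Fibroblast markers, led by Col1a1, stood at 35270, 49140 and 76070, with 6 of 6 below both controls. Bone and odontoblast markers summed to 2414, 2550 and 2717, but their members parted, with Dspp above both controls, Dmp1 below both at 83.4, 223.0 and 290.8 CPM, Ibsp and Phex also below, and Bglap between. Leukocyte markers, led by Lyz2, stood at 283.7, 282.1 and 150.2, with Lyz2 and Ptprc above both controls and Cd68 and C1qa below both, and erythroid markers, led by Hbb-bs, at 777.7, 1834 and 1267. The libraries thus differed in the markers of most cell types listed, the control libraries from each other as well.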
